A study of Mus musculus with 6 samples.

Results

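MicroRNA genes are described here by where they met 2 lists of chromatin intervals in primordial germ cell-like cells (PGCLCs) of the mouse, one of the HA-tagged protein Tex10 and one of the promoter mark H3K4me3. The members were every gene of type miRNA in GENCODE release M21 on chromosomes 1 to 19 of the GRCm38 build, which gave 2054 of 51229 annotated genes. Each gene was scored over its body plus 1 kb on each side. Genes under 10 kb apart on the same strand were joined into clusters, which gave 110 clusters holding 420 genes, beside 1634 single genes, for 1744 loci in all. The gene bodies had a median length of 90 bp (39 to 442 bp).

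PGCLCs are grown in culture as a model of the embryonic cells from which eggs and sperm arise, and the study mapped them by ChIP-seq at day 2. All 6 samples were untreated cells of strain 129Sv/J in which Tex10 carried a C-terminal HA tag. There were 2 samples with anti-HA antibody (Abcam ab9110), 2 with an antibody against H3K4me3 (Abcam ab8580) and 2 of input DNA. The files analysed held 1 interval list for each antibody and no score, so no value below has a replicate error, no test compares samples, and the depth is unknown. Shares carry a Wilson 95% interval that covers counting error only and treats neighbouring genes as independent, which they are not.

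A microRNA is a short RNA that guides Argonaute proteins to messenger RNAs, chiefly through its seed, bases 2 to 8 from the 5′ end. Most microRNAs are cut from a hairpin in a longer transcript, which is either the RNA of a host gene or a transcript with a promoter of its own, so a promoter can lie far from the hairpin it serves. H3K4me3 marks nucleosomes at active or poised promoters. Tex10 was described in embryonic stem cells as a partner of pluripotency factors at enhancers, and it also belongs to a complex that acts in ribosome assembly.

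The HA-Tex10 list held 4331 intervals (median width 234 bp) and the H3K4me3 list 29072 (median 710 bp). A further deposited list held the 2990 HA-Tex10 intervals that met an H3K4me3 interval and carried no further measurement. Of 6 promoters chosen as a check of the cell label, those of Pou5f1, Nanog, Prdm1, Tfap2c and T had an H3K4me3 interval, that of Dppa3 had none, and 0 of the 6 had an HA-Tex10 interval. H3K4me3 alone does not show that a gene is transcribed.

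The sequences that the results turn on come first, from RefSeq for GRCm38.p6. Stem cells are known for microRNAs that share the seed core AAGUGC, which are made from the miR-290 and miR-302 clusters. Among the mature sequences used, the following 8 carry that core, with the seed in capitals. None was available for miR-302a-3p or for the 3p arm of Mir292, so the set may be incomplete. The 8 are shown because the genes of the 290 cluster lay in H3K4me3 while those of the 302 cluster did not.
miR-290a-3p: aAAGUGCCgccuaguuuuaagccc
miR-291a-3p: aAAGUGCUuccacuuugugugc
miR-291b-3p: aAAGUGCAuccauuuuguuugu
miR-294-3p: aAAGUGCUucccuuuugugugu
miR-295-3p: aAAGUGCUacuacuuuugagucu
miR-302b-3p: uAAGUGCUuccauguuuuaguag
miR-302d-3p: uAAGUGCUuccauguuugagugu
miR-350-5p: aAAGUGCAugcgcuuuggg

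The next set is shown because an HA-Tex10 interval overlapped the hairpin (Mir5121, Mir7238 and Mir6546) or lay beside one copy of a duplicated microRNA and not the other (miR-129-5p, made from both Mir129-1 and Mir129-2). The seed is again in capitals. Mir320 also had an interval over its hairpin.
miR-5121: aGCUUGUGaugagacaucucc
miR-7238-5p: aUGCGGAUgggacgcggc
miR-7238-3p: cUGUCCUUuguguuc
miR-6546-5p: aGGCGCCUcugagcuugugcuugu
miR-6546-3p: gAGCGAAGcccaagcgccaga
miR-129-5p: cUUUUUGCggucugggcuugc

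Sequences of 3 HA-Tex10 intervals follow, on the strand of the microRNA gene and with any bases of its annotated body in capitals. The first covered 62 of the 74 bases of Mir5121 (GRCm38 chr7:45126717-45126979, minus strand), and the second covered 92 of the 138 bases of Gm44394, which lies opposite the histone gene Hist1h2ae (chr13:23570772-23570934, plus strand). The third lay 927 bp beyond Mir129-1 and held none of its bases (chr6:29023618-29023907, plus strand). They show that the intervals near microRNA genes ranged from ones over a hairpin, to ones over a protein-coding exon with an antisense annotation, to ones outside the annotated gene.
Mir5121 interval: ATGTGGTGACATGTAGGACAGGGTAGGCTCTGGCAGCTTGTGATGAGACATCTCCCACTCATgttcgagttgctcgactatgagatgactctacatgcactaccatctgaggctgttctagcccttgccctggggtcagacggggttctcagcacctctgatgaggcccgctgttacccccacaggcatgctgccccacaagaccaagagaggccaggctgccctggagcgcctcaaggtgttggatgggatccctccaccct
Gm44394 interval: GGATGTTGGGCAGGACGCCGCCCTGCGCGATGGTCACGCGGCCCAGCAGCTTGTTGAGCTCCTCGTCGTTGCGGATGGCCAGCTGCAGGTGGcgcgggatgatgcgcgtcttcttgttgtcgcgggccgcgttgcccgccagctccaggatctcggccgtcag
Mir129-1 interval: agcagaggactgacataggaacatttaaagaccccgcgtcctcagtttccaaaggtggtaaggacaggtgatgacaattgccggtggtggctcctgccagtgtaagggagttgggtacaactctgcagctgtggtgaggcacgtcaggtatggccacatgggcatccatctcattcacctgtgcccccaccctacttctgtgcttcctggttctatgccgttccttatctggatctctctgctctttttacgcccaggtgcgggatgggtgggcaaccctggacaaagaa

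The Mir5121 interval was 57.8% G and C with 5 CpG dinucleotides, the Gm44394 interval 68.7% with 20, and the Mir129-1 interval 54.1% with 7. Of the 3, the histone interval was both the shortest and the one with the most CpG dinucleotides.

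An HA-Tex10 interval lay in the window of 48 microRNA genes (2.34%, 1.77 to 3.08%), and an H3K4me3 interval in that of 324 (15.8%, 14.3 to 17.4%). Over all 51229 annotated genes scored in the same way the shares were 6.65% for HA-Tex10 and 36.1% for H3K4me3, but most of those genes are longer than a hairpin. Genome tiles of 2090 bp, the median size of a scored window, gave 0.367% and 3.09%. Genes of other short RNAs (snRNA, snoRNA, misc_RNA and rRNA, n = 3582) gave 2.93% for HA-Tex10 and 8.68% for H3K4me3. The HA-Tex10 share of all members was thus above that of the genome tiles. The 2.93% of other short RNA genes is inside its interval. That group mixes 8.1% for rRNA with 2.64% for snoRNA, 2.63% for snRNA and 1.33% for misc_RNA genes. For members that RefSeq also annotates as a miRNA the HA-Tex10 share was lower, as given below.

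Nearly all microRNA genes with HA-Tex10 also had H3K4me3 in the window, as did most annotated genes of any type with HA-Tex10. Most microRNA genes with H3K4me3 had no HA-Tex10. Of the 48 genes with HA-Tex10, 46 also had H3K4me3, 278 genes had H3K4me3 alone and 1728 had neither. The exceptions were Mir129-1 and Mir7218, whose nearest H3K4me3 intervals were 41154 and 32488 bp away. Over all annotated genes, 3181 of the 3407 with HA-Tex10 had H3K4me3 as well, so this overlap was not particular to microRNA genes. At 41 of the 48 genes an HA-Tex10 interval itself met an H3K4me3 interval. Counted by interval rather than by gene, 2990 of the 4331 in the whole HA-Tex10 list did so. HA-Tex10 was found at 14.2% (10.8 to 18.4%) of the microRNA genes with H3K4me3, against 17.2% of all genes with H3K4me3 and 8.83% of the tiles with H3K4me3. Without H3K4me3 it was found at 2 of 1730 microRNA genes (0.116%).

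The label microRNA gene did not hold for all members. RefSeq annotates a miRNA over at least 50% of the gene on the same strand for 1096 of the 2054. A further 20 overlapped a histone gene, 19 of them on its opposite strand and 19 at genes of the H2A family (the other at H1fx), 18 matched another small RNA of RefSeq, and 920 matched none. This division was made after the intervals at the members had been seen.

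The classes had different shares of HA-Tex10. Of the 1096 RefSeq miRNA genes, 17 had HA-Tex10 (1.55%, 0.971 to 2.47%) and 210 had H3K4me3 (19.2%, 16.9 to 21.6%). The 2.93% with HA-Tex10 among other short RNA genes lies above the upper end of that HA-Tex10 interval. Of the 20 genes over a histone gene, 13 had HA-Tex10 (65%, 43.3 to 81.9%) and 19 had H3K4me3 (95%, 76.4 to 99.1%). Without intervals in mostly repeated sequence, where more than 50% of the 32-base words have another copy in the reference genome, HA-Tex10 remained at 3 of these 20 and H3K4me3 at 16. H3K4me3 intervals over 300 bp were judged by their central 300 bases only. The 920 genes with no RefSeq small RNA had HA-Tex10 at 15 (1.63%) and H3K4me3 at 85 (9.24%), and the 18 at other small RNAs had them at 3 (16.7%) and 10, also without mostly repeated intervals. Without the histone members the HA-Tex10 share of the whole set was 1.72% (35 of 2034).

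**Figure D1:**
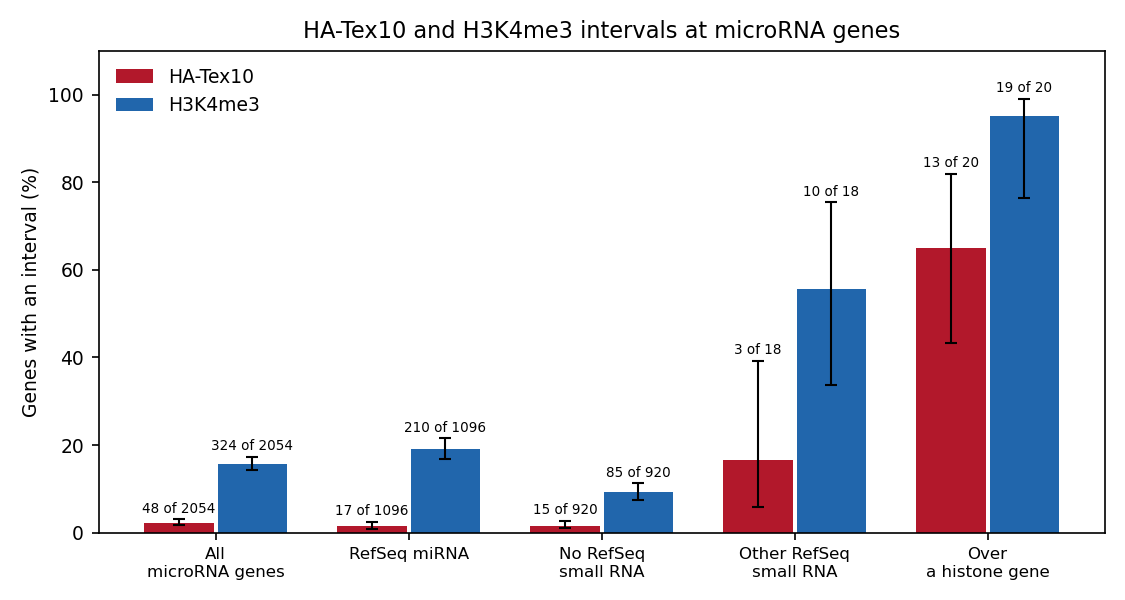
Share of microRNA genes with an HA-Tex10 (red) or H3K4me3 (blue) interval in the gene body plus 1 kb on each side, in percent, for all members and for the 4 annotation classes. Bars start at 0, error lines are Wilson 95% intervals and the counts stand above them; with all intervals counted the 20 genes over a histone gene have 13 with HA-Tex10, which falls to 3 without mostly repeated intervals, and RefSeq miRNA genes have 17 of 1096 for HA-Tex10.

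At RefSeq miRNA genes with H3K4me3, HA-Tex10 was present at 15 of 210 (7.14%, 4.38 to 11.4%). The upper end of that interval is below the 17.2% of all genes with H3K4me3, but many of those genes are longer and were scored over wider windows. The share is near the 8.83% of H3K4me3-bearing tiles, which have the median size of a scored window. The H3K4me3 intervals at the 15 genes with HA-Tex10 had a median width of 2165 bp (quartiles 1103 and 2812 bp), against 1394 bp (816 and 1944 bp) at the other 195, and the quartile ranges overlapped.

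The known microRNA families had no HA-Tex10, and some had H3K4me3. Across 13 lists of microRNAs with a known role, 84 of 85 symbols matched a member, and the unmatched Mir223 is on chromosome X. None of the 84 had an HA-Tex10 interval in its window, while 32 had H3K4me3 (38.1%, 28.4 to 48.8%), against 19.2% of all RefSeq miRNA genes. Of these 32, 9 were in the miR-290 cluster and 6 in the miR-17-92 cluster, where neighbouring genes share intervals. They are not independent, so the 2 shares cannot be compared by this interval. In 5 of the 13 lists no gene had H3K4me3. A count of 0 in 84 allows a share of up to 3.57%, which is above the 1.55% found over all RefSeq miRNA genes. Limits for counts of 0 are 3 divided by the number of genes, not a Wilson interval, and also treat genes as independent.

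The miR-290 cluster makes the chief microRNAs of mouse embryonic stem cells, which hasten the passage from G1 to S phase. Its 7 genes on the plus strand span 2216 bp (GRCm38 chr7:3218626-3220841), and Mir290b and Mir292b are annotated on the opposite strand. All 9 had H3K4me3, in a row of 4 intervals of 555, 512, 1394 and 1109 bp. The 1394 bp interval covered Mir290a to Mir291b, and the 1109 bp interval covered Mir293, Mir294 and Mir295. The nearest HA-Tex10 interval, 485 bp wide, was 191051 to 193197 bp away.

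The miR-302 cluster, in which Mir302b and Mir302d carry the same seed core, lies antisense within Larp7 and had neither mark at its 5 genes. Its nearest H3K4me3 interval was 6662 to 7168 bp away and its nearest HA-Tex10 interval 7449 to 7955 bp away. Of the 8 genes with the AAGUGC core among the mature sequences used, the 5 of the miR-290 cluster had H3K4me3. Mir302b, Mir302d and Mir350 did not. The 2 clusters thus share a seed core, though not in every gene, and differed in the promoter mark.

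All 6 genes of the miR-17-92 cluster, known for its growth-promoting role, had a single H3K4me3 interval in their windows. That interval was 2045 bp wide (chr14:115041934-115043978), covered the start of the host transcript Mir17hg, and overlapped Mir17 and Mir18. It ended 22 bp before Mir19a and 327 bp before Mir19b-1. The nearest HA-Tex10 interval was 72090 to 72842 bp away. The related miR-106b-25 cluster, in an intron of the replication helicase gene Mcm7, had neither mark in its 3 windows. The Mcm7 promoter had H3K4me3, and the nearest intervals to the hairpins were 3360 to 3776 bp away for H3K4me3 and 4255 to 4671 bp for HA-Tex10.

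MicroRNAs of the let-7 family, which mark differentiation and are held back in stem cells at the processing step, were mostly without H3K4me3 in their windows. It was found at 4 of the 16 genes of let-7, miR-99 and miR-125. Mirlet7i had a 3114 bp interval, and Mir99b, Mirlet7e and Mir125a lay in or within 155 bp of the widest H3K4me3 interval at any member, 4863 bp (chr17:17825795-17830657), at the Spaca6 gene. An HA-Tex10 interval of 237 bp lay inside that H3K4me3 interval, 1225 bp from Mir99b and 1849 bp from Mir125a, and so just outside their windows. The other 12 genes, among them the cluster of Mirlet7a-1, Mirlet7f-1 and Mirlet7d, had neither in their windows. The promoter of 6720427I07Rik, which hosts that cluster, did have H3K4me3, as did that of Wdr82, which hosts Mirlet7g. That of Gm49317, which hosts Mir100, Mirlet7a-2 and Mir125b-1, had none.

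**Figure D2:**
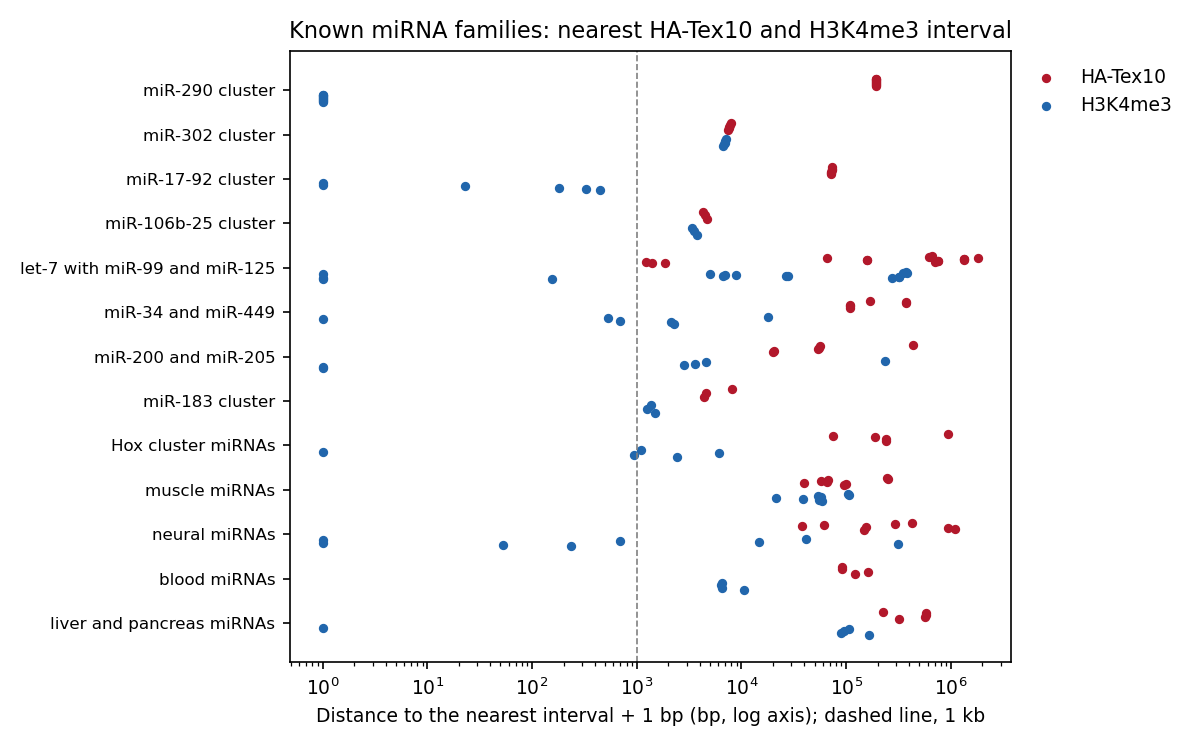
Distance from each gene of the 13 family lists to the nearest HA-Tex10 (red) and H3K4me3 (blue) interval, in bp plus 1 on a log axis. Each point is a gene and the dashed line is the 1 kb window; no red point lies left of it, and the red points nearest to it are Mir99b, Mirlet7e and Mir125a at 1225 to 1849 bp.

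Families tied to other tissues varied in their windows, and some genes without H3K4me3 there had it at the host promoter. The neural list had H3K4me3 at 5 of 8 genes, namely all 3 copies of Mir124a, which promotes neuronal differentiation, and Mir9-2 and Mir9-3. Their intervals were 473 to 1662 bp wide. The epithelial miR-200 list had it at Mir200c and Mir141, under 1 interval of 1433 bp, and at 0 of the other 4 genes. The promoter of Ttll10, host of Mir200a, Mir200b and Mir429, had H3K4me3, and that of the host of Mir205 had none. Among microRNAs in Hox clusters, Mir196b (313 bp) and Mir10a (285 bp) had an interval and 3 did not.

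The miR-34 and miR-449 list, known for p53 response and ciliated cells, had a shared interval of 296 bp at Mir34b and Mir34c and one of 305 bp at Mir449c, and none at the other 3. Of the liver and pancreas microRNAs, Mir375 of the endocrine pancreas had an interval of 672 bp and 4 had none. The 8 muscle genes, the 4 blood genes and the 3 genes of the sensory miR-183 cluster had no interval of either kind in their windows. The promoter of Mir155hg, host of the blood gene Mir155, had H3K4me3, while that of Mir142hg, host of Mir142, had none. The same-strand hosts of the muscle genes had none either. For the muscle genes the nearest H3K4me3 was 21531 to 107641 bp away, while for the miR-183 cluster it was 1256 to 1478 bp away.

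The 3 clusters of 10 or more genes had neither mark in any window. The largest, with 119 genes in the introns of Sfmbt2, is a rodent-specific imprinted array. The start of its host gene had an H3K4me3 interval of 855 bp, 35473 to 88345 bp from the hairpins, and the nearest HA-Tex10 interval was 416725 to 469593 bp away. Of these 119 gene bodies, 71 were mostly repeated, so reads there are hard to place. The other 2 clusters, of 39 and 14 genes, belong to the imprinted Dlk1-Dio3 region, where 0 of 65 genes had either interval and the nearest HA-Tex10 was 200468 to 384643 bp away. Counts of 0 would allow a share of up to 2.52% of the 119 genes and 4.62% of the 65 if genes were independent. They are not, because the 119 genes form 1 locus and the 65 form 8, so these limits say little. Over all clusters 26 of 110 had H3K4me3 and 6 had HA-Tex10, and the share of genes with HA-Tex10 was 2.38% in clusters and 2.33% for single genes.

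The 17 RefSeq miRNA genes with HA-Tex10 held none of the 13 families. In 4 an interval overlapped the hairpin. Mir5121, which touched an exon of an annotated transcript of the ribosomal protein gene Rpl13a, had an interval of 263 bp inside H3K4me3 of 4478 bp. RefSeq also places the snoRNA gene Snord33 there. Here and below, in an exon means touching an exon of any annotated transcript of the host, which need not be its main messenger RNA. Mir320 (chr14:70443510-70443591, plus strand), which lies head to head with the gene of the RNA polymerase III subunit Polr3d, had 237 bp inside H3K4me3 of 1144 bp. MiR-320 is known as a microRNA whose precursor is made directly by transcription rather than by Drosha. Mir7238, in an exon of Ankrd10, had 3 intervals, the widest 537 bp, inside H3K4me3 of 3951 bp. Mir6546, in an intron of the Fc receptor gene Fcgr3, had 312 bp inside 1175 bp, and 74.0% of the 32-base words of that HA-Tex10 interval were repeated.

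The other 13 had the interval beside the hairpin. The widest, 946 bp, was 645 bp from Mir1894, in an exon of Ppp1r10, whose protein targets protein phosphatase 1 to the nucleus. Mir7240, opposite an intron of Mast3, had 2 intervals, the nearest 96 bp away, and Mir8098, at Wdfy2, had 1 at 95 bp. Mir707 (767 bp away) lay at the promoters of Akt1s1, an inhibitor of mTORC1, and Tbc1d17. Mir7654 (499 bp) lay at Arglu1 and Mir8116 (540 bp) in an intron of Ache, the acetylcholinesterase gene. The interval near Mir8116 lay within 1 kb of a start site of Ufsp1, and the Ache promoter had neither mark. Mir5620 (640 bp) was at Clcn4, and its interval was 55.6% repeated.

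Mir8099-1 (749 bp away), Mir1199 (989 bp) and Mir1949 (988 bp) also had 1 interval each. The Mir101c interval, 467 bp from the gene, was 92.3% repeated. Mir1199 and Mir1949 were the members nearest inside the 1 kb edge, and Mir6919 (1066 bp) and Mir1966 (1210 bp) were the nearest outside it. For H3K4me3 the edge members were Gm23062 (999 bp) and Gm25476 (968 bp) inside, and Mir5114 (1035 bp) and Mir181d (1038 bp) outside.

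Mir129-1 and Mir7218 stood apart from the other 15 in having no H3K4me3 in their windows. The Mir129-1 interval was 290 bp wide, with 0% of its words repeated, and that of Mir7218 was 190 bp, also 0%, at 656 bp from the gene. Mir129-2, which makes the same miR-129-5p as Mir129-1, had H3K4me3 and no HA-Tex10. MiR-129 is known from brain. The windows of the 2 copies of this microRNA thus had opposite states in these lists. The promoter of Gm3294, the host of Mir129-1, did have H3K4me3, without HA-Tex10. The promoter of Gm49794, the host of Mir7218, had neither.

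No seed was shared among the HA-Tex10 genes. Of the 17, 15 had a mature sequence in the RefSeq table, with 21 mature sequences and 21 distinct seeds, and 0 seeds were found in more than 1 of these genes. Over the 926 RefSeq miRNA members with a mature sequence there were 1521 mature sequences and 1243 distinct seeds, so most seeds were rare to begin with.

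**Figure D3:**
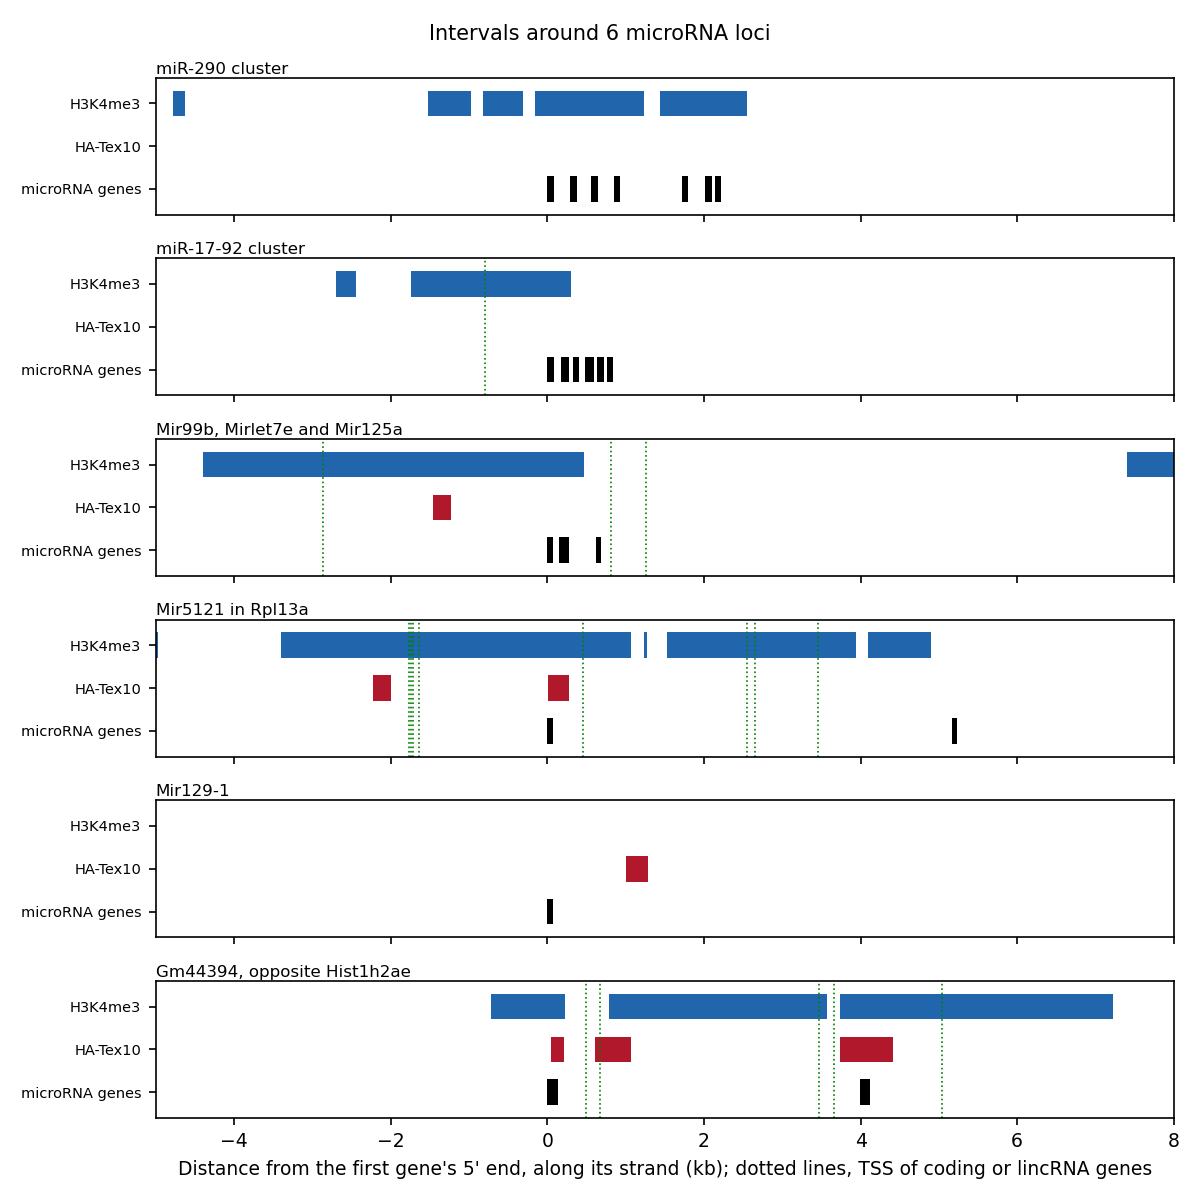
Intervals around 6 loci, by distance in kb from the 5′ end of the first microRNA gene along its strand, with H3K4me3 (blue), HA-Tex10 (red), microRNA genes of either strand (black, drawn at least 40 bp wide) and transcription start sites of coding or lincRNA genes (dotted). The miR-290 and miR-17-92 clusters lie in H3K4me3 with no HA-Tex10 in the drawn range, and Mir5121 has HA-Tex10 over its hairpin. Mir129-1 has HA-Tex10 927 bp beyond its gene and no H3K4me3 in the drawn range.

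The histone members had HA-Tex10 at 13 of 20 genes with all intervals counted and at 3 of 20 without mostly repeated ones, which no longer exceeds the 3 of 18 at other small RNAs. All but the one at H1fx lie at genes of the H2A family, most of which are replication-dependent genes, and 13 of the 20 are on chromosome 13. The widest HA-Tex10 interval at any member was 1058 bp, 116 bp from Gm19658 at Hist1h2ao. Gm47311 at Hist2h2aa2 had 760 bp, Gm44359 at Hist1h2ad 675 bp, Gm44466 at Hist1h2ap 583 bp and Gm44346 at Hist1h2an 521 bp. Gm44335, opposite the DNA damage histone gene H2afx, had 2 intervals inside H3K4me3 of 4547 bp.

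Gm44394 at Hist1h2ae also had 2 HA-Tex10 intervals, and those at Gm44350 (Hist1h2ac, 388 bp), Gm44454 (Hist1h2ak, 258 bp), Gm44484 (Hist1h2ab, 229 bp), Gm44313 (Hist3h2a, 196 bp), Gm44367 (Hist1h2ai, 170 bp) and Gm44390 (Hist1h2ah, 14 bp) were narrower. These 13 members had 17 HA-Tex10 intervals, and each member had one within 1 kb of a coding or lincRNA start site. For 11 of the 13 at least 1 interval was mostly repeated. H2A genes are near-identical copies, so which copy a read came from is uncertain. Their H3K4me3 intervals had a median width of 1756 bp, against 2421 bp at the 6 histone members with H3K4me3 and no HA-Tex10. Chromosome 13 as a whole had HA-Tex10 at 14 of 97 microRNA genes (14.4%).

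**Figure D4:**
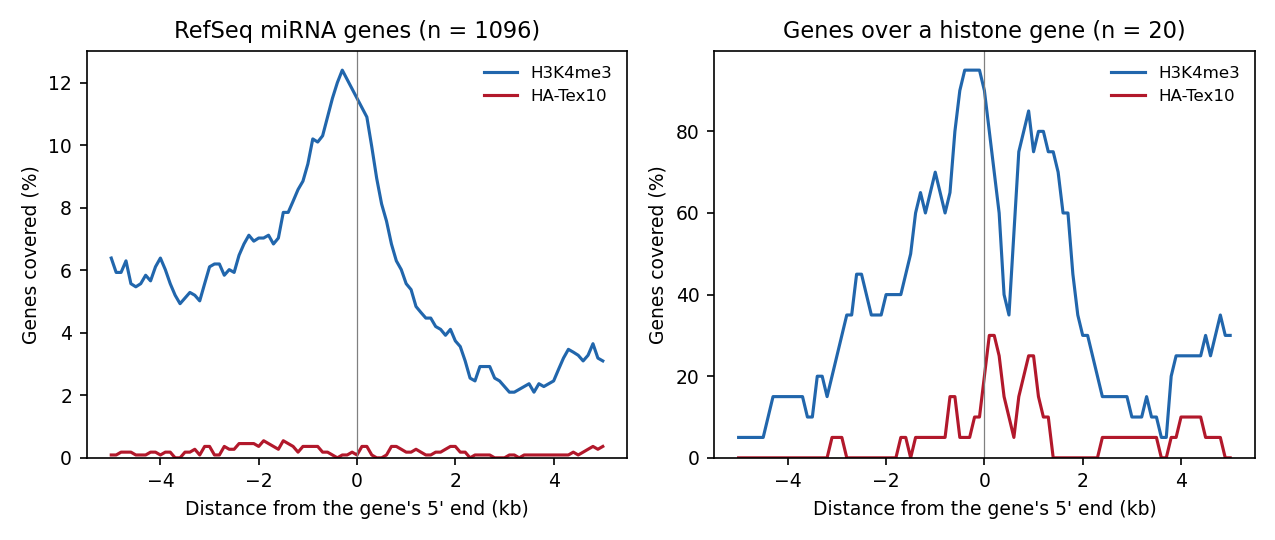
Share of genes covered by an H3K4me3 (blue) or HA-Tex10 (red) interval, in percent, at each 100 bp step from 5 kb before to 5 kb after the 5′ end of the annotated gene, for 1096 RefSeq miRNA genes (left) and 20 genes over a histone gene (right). H3K4me3 peaks at 12.4% 300 bp before RefSeq miRNA genes, where HA-Tex10 stays at or below 0.547% throughout; at histone members HA-Tex10 reaches 30% and H3K4me3 95%. The vertical axes differ.

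Around RefSeq miRNA genes H3K4me3 was highest just before the 5′ end, at 12.4% of genes covered at 300 bp before it. It was covered at 6.39% of genes at 5000 bp before and 3.10% at 5000 bp after. HA-Tex10 covered at most 0.547% (6 of 1096) at any step and had no rise at the 5′ end, where 1 gene was covered.

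Several of the remaining members with HA-Tex10 are other kinds of gene by RefSeq or by position. Gm25747, the 2 genes named Gm24022 and Gm22175 lie together in the immunoglobulin heavy-chain region of chromosome 12 and share 1 interval of 591 bp, of which 73.0% of words were repeated. Gm47287 and Gm47295 overlap Rn7s1, a gene of the 7SL RNA of the signal recognition particle, and share an interval of 391 bp near Rps29. The member n-TStga1 is a tRNA annotation, with an interval of 69 bp. Gm44314 lies near the promoters of Hist1h2bb and Hist1h3c and had 2 intervals, the widest 405 bp.

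Gm23935 in Zc3h7a (349 bp), Gm24270 in Peak1 (331 bp) and Gm24187 (282 bp) had intervals that covered the gene and were 91.8%, 79.7% and 72.1% repeated. The Gm44341 interval (219 bp) overlapped 55 of the gene's 138 bases and was 69.1% repeated. Gm23880 at the acetyltransferase gene Ep300 (290 bp), Gm28033 at Ppp1r18 (204 bp) and Snord43 in Rpl3 (165 bp) had unrepeated intervals at a promoter. Gm25745, Gm27486 and Gm24574 had intervals of 125, 94 and 92 bp at the promoters of Hsp90b1, Sbno1 and Hnrnpa3. Over all 48, 23 had at least 1 interval that was mostly repeated, and for RefSeq miRNA genes this held for 3 of 17.

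Members next to a promoter held most of the HA-Tex10. The start site of a coding or lincRNA gene lay in the window of 277 members, of which 34 had HA-Tex10 (12.3%, 8.92 to 16.7%) and 174 had H3K4me3 (62.8%). The other 1777 had HA-Tex10 at 14 (0.788%, 0.470 to 1.32%) and H3K4me3 at 150 (8.44%). For 25930 coding and lincRNA genes, scored within 1 kb of their start sites, the shares were 7.67% for HA-Tex10 and 52.8% for H3K4me3. Among RefSeq miRNA genes the split was 12 of 175 (6.86%, 3.97 to 11.6%) with a start site and 5 of 921 (0.543%, 0.232 to 1.26%) without one. The HA-Tex10 share of RefSeq miRNA genes beside a start site was thus near that of start sites in general.

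H3K4me3 without a coding or lincRNA start site in the window was found at 108 of 921 RefSeq miRNA genes (11.7%). The miR-290 genes are among these. The widest H3K4me3 intervals outside Spaca6 were 4793 bp at Gm24158, 4789 bp at Mir7687 in Gse1, 4547 bp at Gm44335 and 4478 bp at Mir5121. RefSeq miRNA genes with H3K4me3 had a median of 3.28 CpG dinucleotides per 100 bases of window (quartiles 2.05 and 5.33), against 1.15 (0.811 and 1.67) for those without. For HA-Tex10 the medians were 4.20 and 1.33.

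Position in the host gene went with both marks, where touching an exon of any annotated transcript of the host counted as exonic. Most same-strand members with HA-Tex10, in exons as in introns, had the interval within 1 kb of a start site. The split is thus not separate from nearness to a start site. In exons of a host on the same strand 12 of 281 members had HA-Tex10 (4.27%, 2.46 to 7.31%) and 32.4% had H3K4me3, and in introns 5 of 744 (0.672%, 0.287 to 1.56%) and 10.3%. Members opposite a gene had HA-Tex10 at 18 of 319, of which 13 were the histone members, and members with no host at 13 of 710 (1.83%).

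A microRNA in a host gene is usually made from the host's promoter, so the start sites of hosts were scored as well. The same-strand hosts were 812 distinct genes, of which 664 (81.8%, 79.0 to 84.3%) had H3K4me3 and 103 (12.7%, 10.6 to 15.2%) had HA-Tex10 within 1 kb of a start site. These shares are above the 52.8% and 7.67% of coding and lincRNA genes in general. Among hosts with H3K4me3, 100 of 664 had HA-Tex10 (15.1%, 12.5 to 18%), near the 14.2% (13.6 to 14.8%) of all coding and lincRNA genes with H3K4me3. Set against genes that also had H3K4me3, hosts thus had HA-Tex10 about as often.

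Most of these promoters lay outside the windows of the microRNA genes. H3K4me3 was at the host promoter and not in the member's own window for 678 members. Of the RefSeq miRNA genes, 74 had HA-Tex10 at the host promoter and none in the window, as against 17 with HA-Tex10 in the window. Among them, chosen after their values were seen, were Mir21a in Vmp1, Mir26a-2 in Ctdsp2 and Mir26b in Ctdsp1. Mir30c-1 and Mir30e in Nfyc, Mir103-1 in Pank3, Mir709 in Rfx1, Mir7081 in Dnmt1 and Mir7090 in Ctnnb1 belonged to the same set. The nearest HA-Tex10 interval was 3791 bp from Mir26b, 16835 bp from Mir26a-2, 12877 bp from Mir103-1 and 38535 bp from Mir7081. Whether these hosts make the microRNA from that promoter in PGCLCs was not measured.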

How the data were processed

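MicroRNA genes, their hosts and their start sites came from GENCODE M21, and small RNA annotations and sequences from RefSeq for GRCm38.p6. Files of intervals from 2 HA-Tex10 and 2 H3K4me3 samples were used, with 1 list per antibody. In the deposited lists an interval is a start and an end in bp, with no score, fold or p-value. The submitters' processing notes name Bowtie2 2.3.4.3, SAMtools 1.9, MACS2 2.1.2, HOMER and the build mm10, without their settings. Whether intervals were called in each replicate or on pooled reads, and how the input was used, is not given in the sources used here. No interval ended past a GRCm38 chromosome end.

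An interval counted if it shared at least 1 bp with the window. Coordinates count from 1. A start site was that of a protein-coding or lincRNA transcript, within 1 kb. An interval or gene body counted as mostly repeated where more than 50% of the 32-base words in it had another copy on either strand, with intervals under 100 bp widened to 100 bp. Members, family lists and the rule for named genes (up to 30 loci with the widest HA-Tex10 intervals, listed families, the 5 loci with the widest H3K4me3 and members at the window's edge) were chosen with earlier results of these data known. The class division and the alternatives without histone members or with RefSeq miRNA genes only were chosen after seeing the data. The remaining loci with HA-Tex10 were named as well, so that none was left out. The seed core was taken from miR-294-3p and miR-302b-3p. The overlap, distance and cluster functions were tested on simulated data. Python 3.11.15 with NumPy 2.4.6, pandas 2.3.3 and SciPy 1.17.1 was used.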

Additional observations from a re-analysis of the deposited data

Results flagged for a closer look

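Chromosomes X and Y were outside the member rule. On X, 11 of 142 microRNA genes had an H3K4me3 interval in the window (7.75%, Wilson 95% interval 4.38 to 13.3%) and 0 had HA-Tex10, and on Y 0 of 6 genes had either. The 11 include Mir106a, Mir18b, Mir20b, Mir19b-2, Mir92-2 and Mir363, the cluster that is a paralog of miR-17-92, which also had H3K4me3 and no HA-Tex10. The signal was noted because it lies in data the comparisons do not use.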

How the results depend on the processing

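No paired analysis was possible because there is 1 interval list for each antibody, without replicates, depth or scores. The signal at genes without an interval is unknown.

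The HA-Tex10 share of 2.34% was 0.876% over gene bodies alone, 4.09% with 2.5 kb and 5.84% with 5 kb on each side. It was 1.46% with intervals wider than the median, 1.31% without mostly repeated intervals, 1.57% for symbols starting with Mir, 1.72% without histone members and 1.55% for RefSeq miRNA genes. The H3K4me3 share of 15.8% became 10.8% over bodies, 20.3% with 2.5 kb, 26.4% with 5 kb, 13.4% where at least 0.5 of the interval or window had to be shared, 12.4% with wider intervals, 19.1% for Mir symbols and 19.2% for RefSeq miRNA genes. HA-Tex10 among genes with H3K4me3, 14.2%, became 6.79% over bodies, 20.5% with 5 kb, 7.87% with wider intervals, 8.45% without repeated intervals, 7.25% for Mir symbols and 7.14% for RefSeq miRNA genes. The 44 loci with HA-Tex10 became 16 over bodies, 74 with 2.5 kb, 105 with 5 kb, 26 with wider intervals, 26 without repeated intervals, and 17 for Mir symbols as for RefSeq miRNA genes. The 292 loci with H3K4me3 became 488 with 5 kb, 186 for Mir symbols and 188 for RefSeq miRNA genes. Another 29 of 60 alternatives to these results left the value within its spread or within 1.5 times.

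Without mostly repeated intervals 3 of the 20 histone members kept HA-Tex10. With 5 kb on each side HA-Tex10 appeared at the 3 genes of miR-106b-25, at Mir99b, Mirlet7e and Mir125a, and at 2 genes of the miR-183 cluster. The cause was not tested.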
